A study of Gallus gallus with 9 samples.

Results

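The Wnt and planar cell polarity (PCP) genes of the chick basilar papilla were described along its length, from base to apex. The genes were chosen by symbol alone, as those whose symbol begins with WNT, FZD, SFRP, DKK, VANGL, CELSR, RSPO, PRICKLE, DVL, AXIN or LGR, or is one of LRP5, LRP6, TCF7, TCF7L1, TCF7L2, LEF1, WIF1, ROR1, ROR2, PTK7 and PORCN. Of the 24880 genes measured, 58 met this rule. None of them had the symbol LEF1, TCF7L1 or PORCN. The basilar papilla, the auditory epithelium of birds, came from untreated chickens at post-hatch day 1 and was cut into a base, a middle and an apex piece, whose hair cells are tuned from high to low frequencies in that order. RNA-seq was done on 3 replicates of each region, 9 libraries in all, and each replicate pooled 4 chickens, or 8 cochleas. The pieces held every cell type of the dissected tissue, so in these bulk samples fewer cells of a type and less RNA per cell cannot be told apart. The question was which Wnt and PCP genes differed in level between positions.

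Wnt proteins are secreted ligands that bind Frizzled receptors. Together with the co-receptors LRP5 and LRP6 they stabilise beta-catenin, which acts with TCF and LEF proteins on transcription. R-spondins raise this signal through LGR receptors, while SFRP and WIF proteins and some DKK proteins hold it down. Frizzled and Dishevelled proteins also act with VANGL, CELSR and PRICKLE proteins in PCP, the system that points the hair bundles of neighbouring hair cells the same way and that in mice shapes the growing cochlea.

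Levels are given as FPKM, the number of sequenced fragments per gene scaled to transcript length and to the size of the library. Of the 58 genes, 46 (79.3%) reached a mean FPKM of 1 or more in any region and were tested, against 52.4% of all genes. The share of all genes counts 11868 genes without a symbol, which could not meet the symbol rule. A gene was called when its adjusted p in limma was under 0.05, with Benjamini-Hochberg adjustment over 13045 genes, and its ratio of mean FPKM was at least 1.5. Fitted differences are on the log2(FPKM + 1) scale and are given ± SE, while region means of FPKM are given ± SD with n = 3.

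Across the whole table, summed FPKM lay between 660314 and 741975 per library, and the read totals behind the values are not part of it. The deepest library held about 1.61 times the fragments of the shallowest, as estimated from the steps in the low values. The range of read pairs per replicate given in the study's methods is narrower than this estimate. The labelled tissue carried its markers in all 9 libraries: TECTB, a protein of the tectorial membrane, was at 630.2 to 3142, and OTOF, a hair cell gene, at 11.1 to 163. Summed FPKM of 8 hair cell markers was 31.2 to 88.5 in base, 102 to 192 in middle and 181 to 309.8 in apex, with 6 of 8 called higher in apex than base. OTOF weighs most in these sums. TMC1 alone had a difference below 0 (-0.57, limma adjusted p = 0.101). It was called lower once the replicate number entered the fit as a block (adjusted p = 0.00865). Summed FPKM of 8 supporting cell markers was 768 to 1470.2 in base, 1849 to 3699 in middle and 2188 to 3108 in apex, with 5 of 8 called higher. TECTB weighs most in these sums, and ZBTB20 alone had a difference below 0 (-0.46, not called). Of 9 matched mesenchyme and cartilage genes, 8 were tested and 3 were called lower in apex (COL9A1, COL9A2 and POU3F4), with sums of 12480 to 15870 in base and 7868 to 9907 in apex, and COL1A1 was listed at 0. COL9A1 and COL9A2, with means of 3257 and 6121 in base, weigh most in these sums. LUM, COL3A1 and MATN1 had differences above 0 between apex and base (0.35, 0.25 and 0.23). Those of COL1A2 and DCN were below 0 (-0.12 and -0.56), and none of these genes was called. Of the Schwann cell genes, 3 of 4 tested were called higher in apex, with sums of 934 to 1165 in base and 1705 to 2460 in apex. Among the otoconial markers, OTOL1 was called higher and SPARC lower in apex. Summed FPKM of 8 neuron markers was highest in replicate 2 of every region, at 624 in base, 2737 in middle and 1326 in apex. NEFL and NEFM weigh most in these sums. SYT1 in base (8.39 in replicate 1, 7.43 in replicate 2) and the scarce GAP43 in base and apex were not highest in replicate 2. These marker levels moved with region or replicate beside the genes described here, and their part in any result was not tested.

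Between apex and base, 15 of the 46 tested genes (32.6%) were called, beside 11.8% of all genes tested. Of these, 7 were higher in apex (WNT7A, FZD3, FZD8, LGR6, SFRP2, SFRP5 and CELSR1), where 7.15% of all genes were called higher. Lower in apex were 8 (all 4 R-spondins, SFRP4, FZD2, FZD9 and PRICKLE2), where 4.66% of all genes were called lower. With adjusted p alone 21 were past the threshold (22.1% of all genes), 14 of them lower in apex (11.3% of all genes), and the 6 that this adds (WNT5B, LRP5, LRP6, ROR1, LGR4 and AXIN1) were all lower. With the replicate number as a block 16 were called, which adds DKK2, beside 15.1% of all genes. The median difference was -0.13 over the 46 genes and -0.007 over all genes tested. Differences were below 0 for 30 of the 46 genes, against 6668 of all 13045 genes tested. Base and apex libraries did not overlap for 28 of the 46 (60.9%), against 42.7% of all genes tested.

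**Figure D1:**
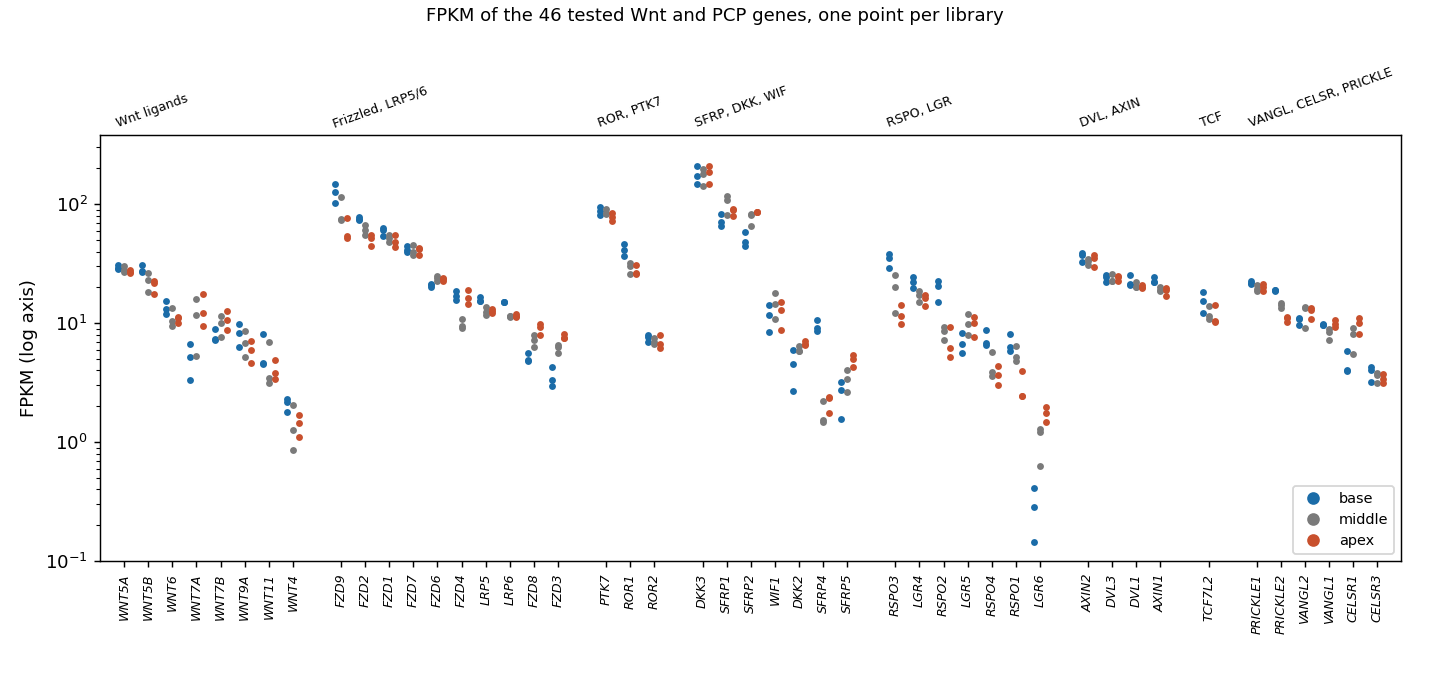
FPKM of the 46 tested Wnt and PCP genes on a log axis, grouped by role, with one point per library (blue for base, grey for middle, red for apex, 3 libraries each). Levels ran from 0.144 for LGR6 in a base library to 210.7 for DKK3 in an apex library.

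**Figure D2:**
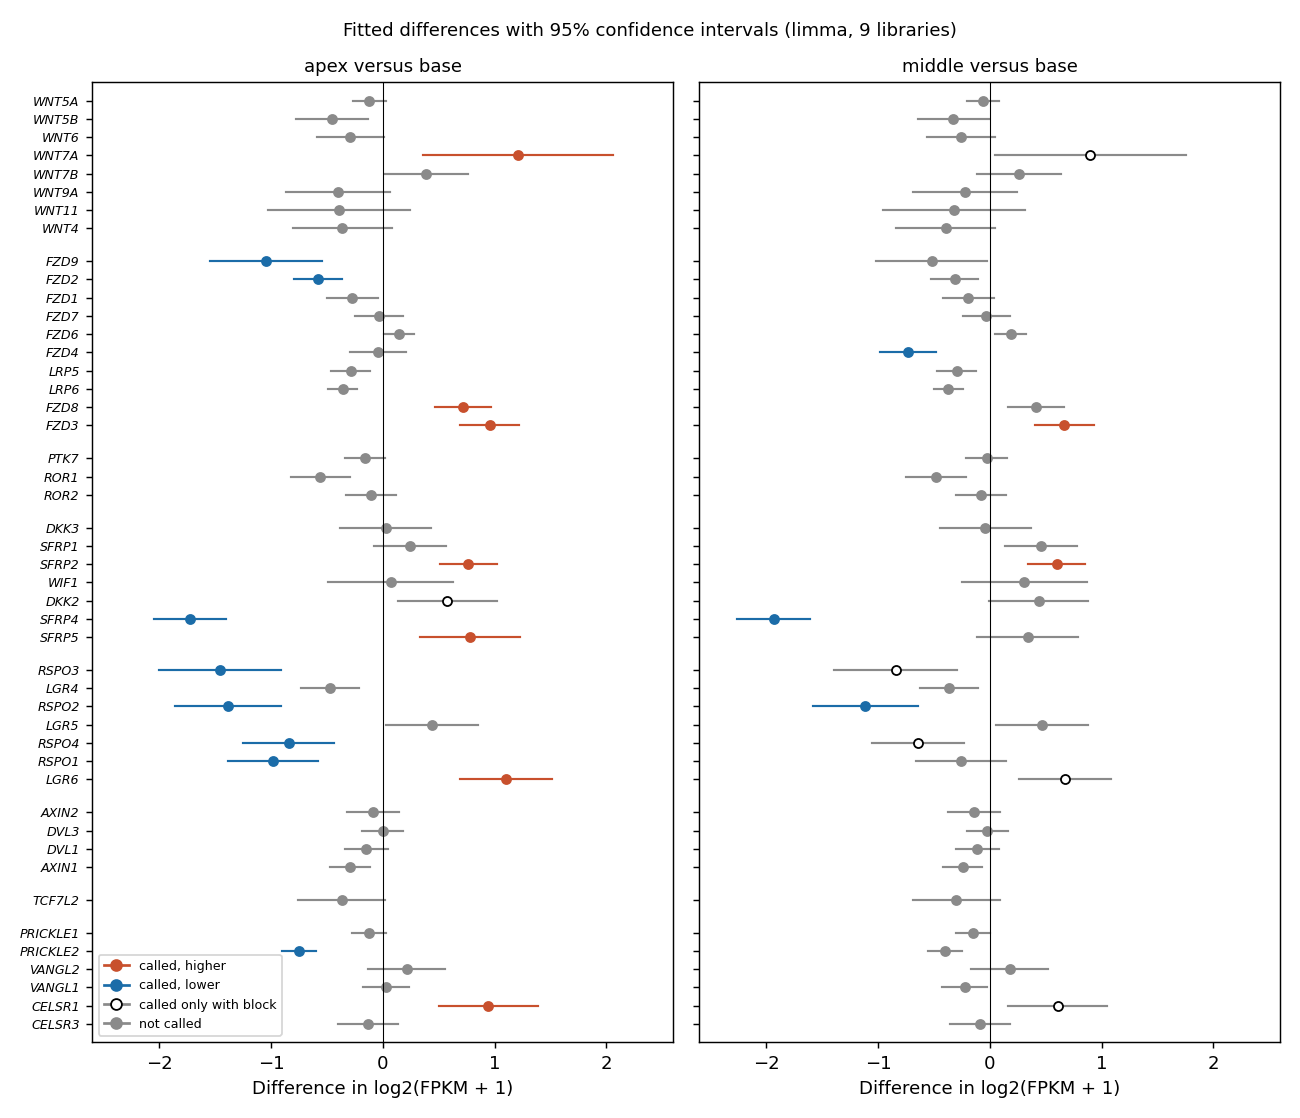
Fitted difference in log2(FPKM + 1) for each of the 46 genes between apex and base (left) and between middle and base (right), with bars giving the 95% confidence interval from limma over 9 libraries. Filled red and blue points are genes called higher and lower, open points are genes not called in that fit but called once the replicate number entered it as a block, and grey points were not called. All 4 R-spondins lie left of 0 in both comparisons, and SFRP4 lies farthest left at -1.72 and -1.94.

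The R-spondins, secreted proteins that raise Wnt signalling through LGR receptors, were all lower in apex than in base. Their summed FPKM was 67.8 ± 4.79 in base, 37.5 ± 7.34 in middle and 25.4 ± 1.54 in apex. All 4 stayed called under quantile normalization and under median-ratio scaling.

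RSPO3 (chr3:59438707-59496891 in galGal5) was the most abundant of them, at 35.6, 37.9 and 29.2 FPKM in base replicates 1 to 3, 25.5, 20.1 and 12.3 in middle and 14.3, 11.5 and 9.802 in apex. Every base library was above every middle and apex library, while middle and apex overlapped. The level was 2.88-fold lower in apex than base (-1.46 ± 0.24, limma adjusted p = 0.00418), and lower in all 3 same-numbered pairs. Between apex and middle the difference was -0.62 ± 0.24 (adjusted p = 0.483), and it was called with the replicate number as a block (adjusted p = 0.0463).

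RSPO2 (chr2:132121027-132231350) was at 15.01, 22.7 and 20.6 FPKM in base, 7.18, 8.63 and 9.27 in middle and 5.201, 9.28 and 6.21 in apex. The base values did not overlap either other region, and middle and apex overlapped each other. RSPO2 was the one R-spondin called lower in middle than base (-1.11 ± 0.21, adjusted p = 0.0199), and in apex it was 2.82-fold lower than in base (-1.39 ± 0.21, adjusted p = 0.00279). The call for middle was lost without base replicate 2, middle replicate 3 or replicate number 2 of each region, with limma adjusted p up to 0.078.

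RSPO4 (chr20:10087796-10091507) had 8.78, 6.84 and 6.501 FPKM in base, 5.76, 3.58 and 3.86 in middle and 4.35, 3.004 and 3.65 in apex. Base was again clear of both other regions, with replicate 1 the highest in each. The difference between apex and base was -0.84 ± 0.18 (adjusted p = 0.0121), and without base replicate 1 the adjusted p was 0.0515.

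RSPO1 (chr23:3731881-3744539) was at 6.27, 5.87 and 8.09 FPKM in base, 6.396, 5.16 and 4.805 in middle and 2.44, 2.45 and 3.94 in apex. Here base and middle overlapped, and the 3 apex libraries lay below all others. It was 2.29-fold lower in apex than base (-0.99 ± 0.18, adjusted p = 0.00593), and the difference from middle to apex was -0.73 ± 0.18 (adjusted p = 0.21). In the fit with the replicate block, RSPO3 and RSPO4 were also called lower in middle than base (adjusted p = 0.00401 and 0.00266, against 0.0652 and 0.0612 without it). Without replicate number 2 of each region, the calls of RSPO3 and RSPO4 between apex and base were lost (adjusted p = 0.0522 and 0.0615).

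**Figure D3:**
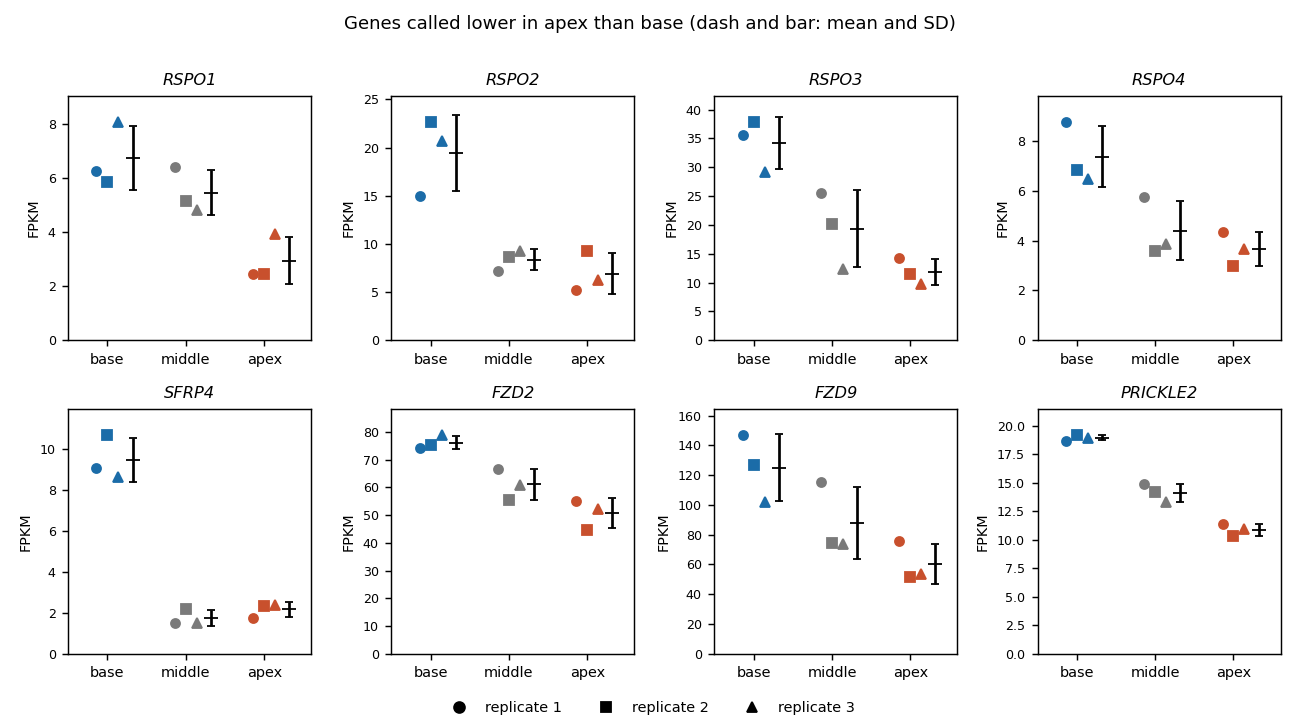
FPKM of the 8 Wnt and PCP genes called lower in apex than base, by region, with one point per library (circle, square and triangle for replicates 1, 2 and 3), and a dash and bar for the mean and SD of 3 libraries. SFRP4 drops between base and middle (9.45 to 1.74), RSPO1 mostly between middle and apex (5.45 to 2.94), and PRICKLE2 in both steps (18.9, 14.1 and 10.9).

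The 3 LGR genes encode the receptors of the R-spondins, and they did not share a direction. LGR4 had 24.6, 22.4 and 19.7 FPKM in base, 18.6, 17.3 and 15.1 in middle and 17.3, 16.1 and 13.9 in apex. Its base libraries were above all others, and the difference between apex and base passed the adjusted p (-0.47 ± 0.11, adjusted p = 0.0197) with a ratio of 0.709, short of the 1.5-fold needed for a call.

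LGR5, a marker of supporting cells with progenitor capacity in the mouse cochlea, was at 6.64, 5.66 and 8.201 FPKM in base, 9.76, 7.87 and 11.9 in middle and 10.01, 7.71 and 11.2 in apex. Base and apex overlapped, because base replicate 3 was above apex replicate 2, but every apex library was above the base library of its number. The difference of 0.44 ± 0.18 had an adjusted p of 0.12 without the block and 0.00141 with it, at a ratio of 1.41.

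LGR6 (chr26:423513-463485) was the scarcest gene tested, at 0.285, 0.4098 and 0.144 FPKM in base, 0.632, 1.22 and 1.300 in middle and 1.98, 1.48 and 1.76 in apex. The 3 regions did not overlap. The ratio of apex to base means was 6.21 and the fitted difference was 1.10 ± 0.18 (adjusted p = 0.00415), a scale that understates the change of such low values. Between middle and base its adjusted p was 0.0554, and it was called with the block (0.0337), with a pseudocount of 0.1 (0.0405), with no filter on low values (0.0398), without the intensity trend (0.0362) and without middle replicate 1 (0.0364). That was the only 1 of the 9 fits leaving out a library that called it, and adjusted p reached 0.19 in the others. Quantile normalization, median-ratio scaling, only the 6 libraries compared and leaving out replicate number 2 of each region gave no call either. LGR6 is not tested when at least 6 libraries must reach an FPKM of 1.

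The group of SFRP, DKK and WIF genes held the most abundant gene of all 58, DKK3. It also held the gene with the largest difference on the log2(FPKM + 1) scale, SFRP4, while by the ratio of apex to base means LGR6 differed more. SFRP4 (chr2:46310717-46320326), a secreted Frizzled-related protein that binds Wnts, was at 9.05, 10.7 and 8.63 FPKM in base, 1.52, 2.21 and 1.49 in middle and 1.77, 2.33 and 2.396 in apex. Base stood clear of middle and apex, and those overlapped each other. SFRP4 was 5.43-fold lower in middle (-1.94 ± 0.14, adjusted p = 0.0013) and 4.36-fold lower in apex (-1.72 ± 0.14, adjusted p = 0.000549), and both calls held when any single library was left out.

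SFRP2 (chr4:20227180-20230889), of the same family, went the other way, with 48.4, 44.7 and 58.03 FPKM in base, 82.3, 65.95 and 81.9 in middle and 85.3, 86.2 and 86.1 in apex. The regions did not overlap, and the apex libraries lay close together, with an SD of 0.498. It was higher in apex than base by 0.77 ± 0.11 (adjusted p = 0.00265, ratio 1.7) and in middle than base by 0.60 ± 0.11 (adjusted p = 0.0208, ratio 1.52). The call between middle and base was lost without base replicate 1 (adjusted p = 0.0852), base replicate 2 (0.078), middle replicate 1 or middle replicate 3 (0.0911), where without middle replicate 1 the ratio fell short. With only the 6 libraries compared, and without replicate number 2 of each region, that call was lost too.

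SFRP5 (chr6:22287005-22296037) was low, at 2.73, 1.55 and 3.18 FPKM in base, 2.64, 4.02 and 3.399 in middle and 4.26, 5.004 and 5.37 in apex. Apex was above both other regions in every library. The difference from base was 0.78 ± 0.20 (adjusted p = 0.0239). It was called in 5 of the 9 fits that left out a library, and its adjusted p was 0.0645 without apex replicate 2, 0.0827 without apex replicate 3, 0.0554 without base replicate 1 and 0.0578 without base replicate 2, and 0.0758 without replicate number 2 of each region. The locus overlaps that of ZFYVE27, whose mean FPKM was 27.4, so its value is uncertain.

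SFRP1 was the most abundant of the 4 genes with an SFRP symbol. It was at 70.8, 65.8 and 83.1 FPKM in base, 116, 80.9 and 108 in middle and 90.9, 79.1 and 89.9 in apex, and the regions overlapped. Middle was the highest region in each of the 3 replicates, and the differences were 0.46 ± 0.14 for middle against base (adjusted p = 0.0806) and 0.24 ± 0.14 for apex against base (adjusted p = 0.26). Shares were taken of the summed FPKM of these 4 genes, which leaves out the related and more abundant FRZB. SFRP4 made up 7.08 ± 1.53% in base, 0.987 ± 0.396% in middle and 1.21 ± 0.208% in apex, while SFRP2 made up 37.1 ± 0.774%, 41.9 ± 1.26% and 47.9 ± 1.79%. The share of SFRP4 in base was clear of that in middle and apex, the shares of SFRP2 did not overlap between any of the regions, and SFRP1 held between 45.8% and 57.4% in every library.

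Among the DKK genes, whose best known member blocks LRP5 and LRP6, DKK3 was the most abundant of the 58 genes, with a mean of 177 FPKM. Its values were 210.4, 174 and 149 in base, 196, 179.5 and 141 in middle and 211, 185 and 147 in apex. Replicates 1, 2 and 3 fell in the same order in every region, and the spread between replicates was far larger than the difference between apex and base of 0.03 ± 0.18 (95% interval -0.38 to 0.43). DKK2, which can raise or lower Wnt signalling, had 4.53, 2.700 and 5.900 FPKM in base, 5.82, 5.88 and 6.46 in middle and 6.58, 6.66 and 7.06 in apex. The apex libraries were above all others. Its difference from base was 0.58 ± 0.19 (ratio 1.55), with a limma adjusted p of 0.0663 without the block and 0.0261 with it. Of the 9 fits leaving out a library, 1 called it, that without base replicate 3 (adjusted p = 0.0168). Adjusted p reached 0.163 in the others. Among the other alternatives, only the block called DKK2. WIF1, which binds Wnts outside the cell, averaged 11.5 ± 2.91 FPKM in base, 14.5 ± 3.603 in middle and 12.2 ± 3.18 in apex, without a call in any comparison.

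Frizzled genes, the receptors, differed in direction and in abundance. Their summed FPKM was 349 ± 17.7 in base, 289 ± 31.7 in middle and 258 ± 25.3 in apex. FZD9 (chr19:264594-266693) was the most abundant, at 147, 127 and 102 FPKM in base, 116, 74.4 and 73.5 in middle and 75.8, 51.7 and 53.6 in apex. Base and apex did not overlap, whereas middle replicate 1 lay within the range of base and the other middle libraries within that of apex. The level was 2.07-fold lower in apex (-1.05 ± 0.22, adjusted p = 0.0114), and without replicate number 2 of each region the adjusted p was 0.0878.

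FZD2 (chr27:1672021-1673804) had 74.2, 75.3 and 78.7 FPKM in base, 66.7, 55.6 and 60.8 in middle and 54.97, 44.6 and 52.3 in apex, and the 3 regions did not overlap. The difference between apex and base was -0.58 ± 0.09 (adjusted p = 0.00381). Its ratio of 0.666 lay at the edge of the 1.5-fold rule, and FZD2 was no longer called without apex replicate 2 (-0.50), without base replicate 3 (-0.56), under quantile normalization (-0.53) or under median-ratio scaling (-0.57), with adjusted p between 0.00399 and 0.0136 in those fits. Leaving out replicate number 2 of each region lost the call as well.

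FZD3 (chr3:106289859-106341933), which in mice acts with FZD6 in orienting hair bundles, was at 3.34, 2.99 and 4.25 FPKM in base, 5.56, 6.301 and 6.57 in middle and 7.51, 7.54 and 8.17 in apex. Each region was clear of the next. FZD3 was 2.19-fold higher in apex than base (0.96 ± 0.12, adjusted p = 0.00156) and 1.74-fold higher in middle than base (0.67 ± 0.12, adjusted p = 0.0166). The call for middle was lost without base replicate 1 (adjusted p = 0.0722), base replicate 2 (0.0633) or middle replicate 3 (0.0777). It was also lost with only the 6 libraries compared and without replicate number 2 of each region. FZD6 itself was at 20.9 ± 0.498 FPKM in base, 23.9 ± 1.199 in middle and 23.2 ± 0.697 in apex, and its difference between apex and base was 0.14 ± 0.06 (adjusted p = 0.124).

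FZD8 (chr2:12831430-12833440) had 4.82, 4.87 and 5.62 FPKM in base, 7.15, 6.29 and 7.94 in middle and 9.34, 7.96 and 9.798 in apex. The regions did not overlap. It was 1.77-fold higher in apex than base (0.72 ± 0.11, adjusted p = 0.00314), and for middle against base the difference was 0.41 ± 0.11 (adjusted p = 0.054).

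FZD4 (chr1:188780367-188784802), the receptor of Norrin and known for its part in the vessels of the retina and the inner ear, had its lowest values in middle. It was at 15.6, 16.8 and 18.5 FPKM in base, 9.52, 10.7 and 9.05 in middle and 16.2, 18.9 and 14.4 in apex. Every middle library was below every base and apex library, and base and apex overlapped. FZD4 was 1.73-fold lower in middle than base (-0.74 ± 0.11, adjusted p = 0.0119), a call lost without base replicate 2 (adjusted p = 0.0542) or middle replicate 3 (0.0583). Apex was higher than middle by 0.69 ± 0.11, with an adjusted p of 0.0914 without the block and 0.0144 with it. NDP, which encodes Norrin, was at 21.8 ± 0.877 FPKM in base, 20.6 ± 2.07 in middle and 16.3 ± 2.62 in apex, and was not called (apex against base -0.41 ± 0.12, adjusted p = 0.0358, ratio under 1.5).

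FZD1 averaged 59.4 ± 4.72 FPKM in base and 49.1 ± 5.95 in apex (-0.28 ± 0.10, adjusted p = 0.0847), and FZD7 averaged 41.7 ± 2.78 and 40.7 ± 3.14 (-0.04 ± 0.09, 95% interval -0.25 to 0.18). As a share of summed Frizzled FPKM, FZD9 was 35.7 ± 4.86% in base, 30.1 ± 4.97% in middle and 23.3 ± 2.90% in apex. FZD3 was 1.02 ± 0.220%, 2.15 ± 0.381% and 3.03 ± 0.340%, and FZD8 was 1.47 ± 0.190%, 2.48 ± 0.318% and 3.52 ± 0.326%. Neither FZD3 nor FZD8 shares overlapped between base and apex, and both genes were below 10 FPKM in every library. The shares of FZD1, FZD4, FZD6 and FZD7 were also higher in every apex library than in any base library. Mean FPKM was not higher in apex than base for FZD1, FZD4 or FZD7. FZD9 shares were lower in apex without overlap, and FZD2 shares overlapped. A share also depends on the sum, which was 349 in base and 258 in apex.

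**Figure D4:**
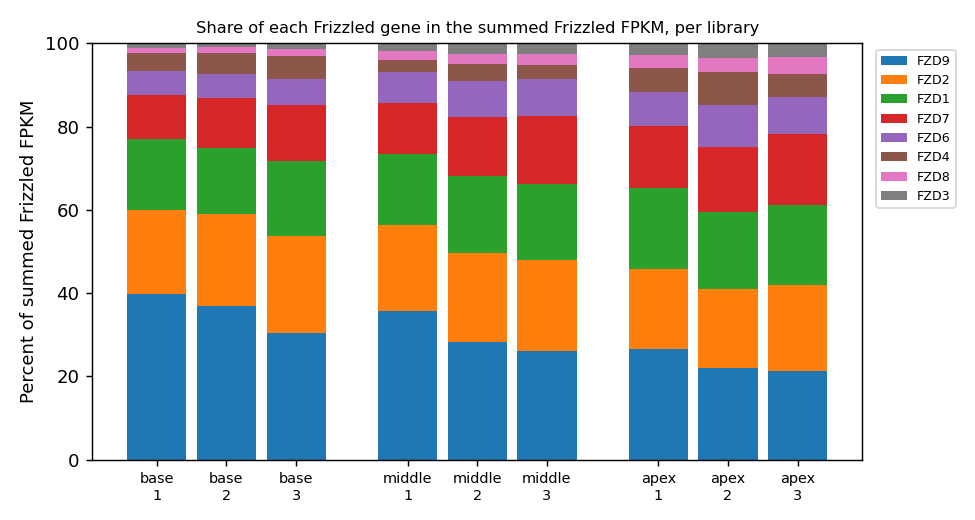
Share of each Frizzled gene in the summed Frizzled FPKM of each library, as stacked bars from 0 to 100%, for 8 of the 9 Frizzled genes (FZD5, with at most 0.492 FPKM, is in the sum but not drawn). The share of FZD9 at the foot of each bar is 30.3% to 39.8% in base and 21.3% to 26.6% in apex.

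The co-receptors LRP5 and LRP6 showed small, even differences. LRP6 was at 15.2, 14.97 and 15.1 FPKM in base, 11.5, 11.4 and 11.4 in middle and 11.4, 11.9 and 11.3 in apex. The base libraries lay well above all 6 others, which were within a narrow range. LRP6 was lower in apex (-0.36 ± 0.06, adjusted p = 0.00324) and in middle (-0.37 ± 0.06, adjusted p = 0.0119) than in base, but at ratios of 0.764 and 0.758 it was not called. LRP5 was 15.7 ± 0.654 FPKM in base, 12.6 ± 1.05 in middle and 12.7 ± 0.557 in apex, with differences of -0.29 ± 0.08 for apex (adjusted p = 0.0269) and -0.30 ± 0.08 for middle (adjusted p = 0.0473).

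Of the 17 Wnt ligand genes, 8 were tested, and their summed FPKM was 101 ± 4.81 in base, 95.8 ± 17.9 in middle and 93.9 ± 10.5 in apex. WNT7A (chr12:6037841-6069834) was the one called, at 5.21, 3.34 and 6.71 FPKM in base, 15.9, 5.27 and 11.7 in middle and 17.5, 9.52 and 12.2 in apex. Base and apex did not overlap, and replicate 2 was the lowest in each region. It was 2.57-fold higher in apex (1.21 ± 0.38) with an adjusted p of 0.0498, close to the threshold. With the replicate number as a block it was 0.00243, and WNT7A was then also called higher in middle than base (0.90 ± 0.19, adjusted p = 0.013 against 0.168 without the block).

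The call of WNT7A held in 2 of the 9 fits that left out a library. Its adjusted p was 0.142, 0.058 and 0.112 without apex replicate 1, 2 or 3, 0.118, 0.153 and 0.0551 without base replicate 1, 2 or 3, and 0.0676 without middle replicate 3. It was 0.0722 under quantile normalization, 0.0682 with no filter on low values and 0.0571 without the intensity trend. The difference itself stayed between 0.98 and 1.40 when a library was left out. As a share of summed Wnt FPKM, WNT7A was 5.004 ± 1.45% in base, 10.98 ± 3.78% in middle and 13.7 ± 2.84% in apex. Its close relative WNT7B was 7.88 ± 0.9300 FPKM in base, 9.697 ± 1.92 in middle and 10.7 ± 1.96 in apex (0.39 ± 0.16), with an adjusted p of 0.126 and, with the block, 0.00987 at a ratio of 1.36.

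**Figure D5:**
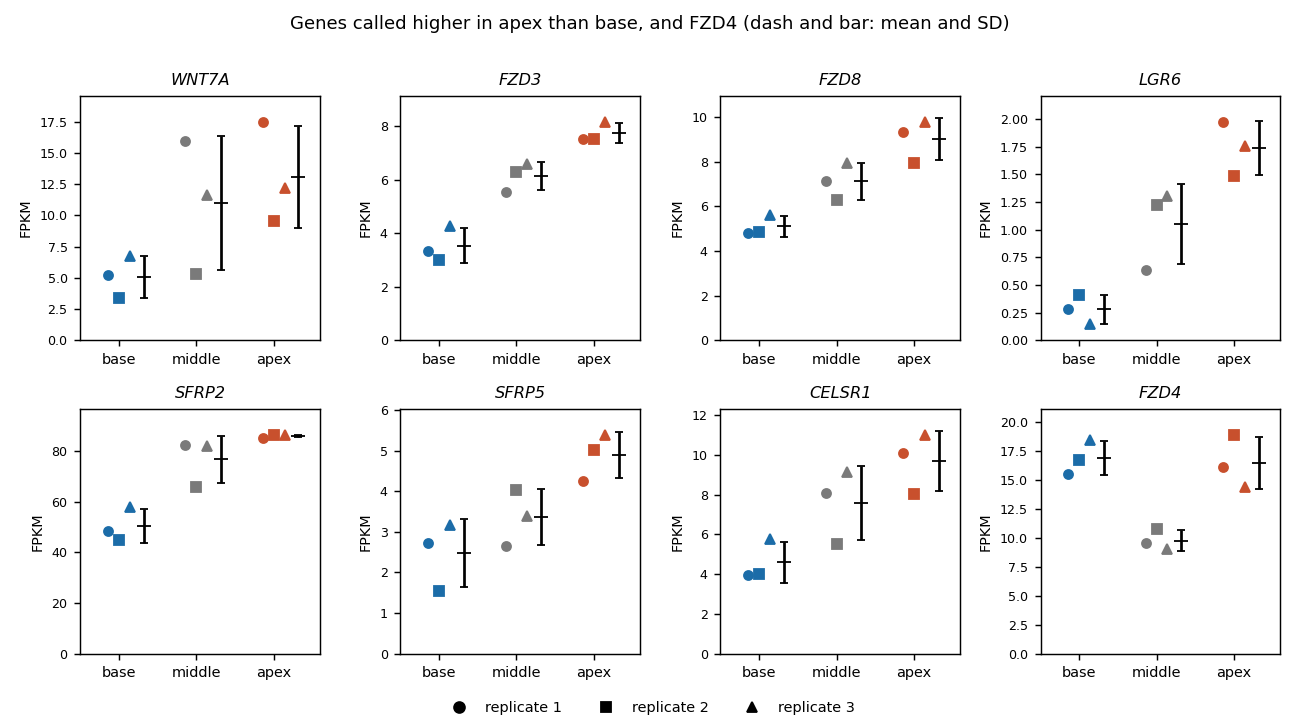
FPKM of the 7 Wnt and PCP genes called higher in apex than base, and of FZD4, by region, with one point per library (circle, square and triangle for replicates 1, 2 and 3) and a dash and bar for the mean and SD of 3 libraries. FZD3, FZD8, LGR6 and SFRP2 have 3 separate regions, replicate 2 of WNT7A is the lowest in each region (3.34, 5.27 and 9.52), and FZD4 is lowest in middle (9.77 against 16.9 and 16.5).

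WNT5A, a ligand that acts through ROR and PCP pathways and in mice takes part in cochlear extension, was the most abundant Wnt. It had 28.9, 31.05 and 28.6 FPKM in base, 29.9, 27.9 and 26.9 in middle and 27.8, 27.1 and 26.2 in apex. Every apex library was below every base library, by little, and the difference of -0.12 ± 0.06 was not called (adjusted p = 0.215). Its paralogue WNT5B was at 27.2, 27.5 and 30.96 FPKM in base, 26.6, 18.4 and 23.3 in middle and 22.6, 17.5 and 21.9 in apex, with base above both other regions. WNT5B passed the adjusted p between apex and base (-0.45 ± 0.14, adjusted p = 0.0497) at a ratio of 0.724.

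The other tested ligands were not called in any comparison. WNT9A, which is expressed beside the developing chick basilar papilla, was 8.13 ± 1.701 FPKM in base, 6.85 ± 1.705 in middle and 5.91 ± 1.25 in apex. It was lower in apex in all 3 same-numbered pairs, with an adjusted p of 0.204 without the block and 0.00244 with it, at a ratio of 0.727. WNT6 (13.5 ± 1.79 in base and 10.8 ± 0.724 in apex), WNT11 (5.76 ± 1.98 and 4.05 ± 0.784) and WNT4 (2.09 ± 0.2599 and 1.41 ± 0.294) had differences of -0.29, -0.39 and -0.36, with adjusted p of 0.155, 0.356 and 0.226. Of the 8 tested ligands, 6 thus had differences below 0 between apex and base, with the 2 WNT7 genes above 0.

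PTK7 and the ROR proteins are receptors tied to the Wnt pathways that do not run through beta-catenin. PTK7, which in mice is needed for hair bundle orientation, was at 94.1, 80.7 and 87.6 FPKM in base, 90.2, 84.4 and 82.2 in middle and 83.5, 72.5 and 78.3 in apex. The regions overlapped, and the difference of -0.16 ± 0.08 between apex and base was not called (adjusted p = 0.189). ROR1 was at 46.6, 41.4 and 36.4 FPKM in base, 32.002, 30.4 and 25.7 in middle and 30.99, 26.3 and 26.1 in apex. Base was above all other libraries, and ROR1 was lower in apex (-0.56 ± 0.12, adjusted p = 0.0115) and in middle (-0.48 ± 0.12, adjusted p = 0.0407), at ratios of 0.67 and 0.708 that fall short of a call. ROR2 averaged 7.53 ± 0.545 FPKM in base and 6.96 ± 0.852 in apex (-0.10 ± 0.10), and its locus overlaps that of SPTLC1, whose mean was 43.2, so its value is uncertain.

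The AXIN, DVL and TCF genes act inside the cell, and those tested were not called in any comparison. AXIN2, part of the complex that degrades beta-catenin and itself a common target of the pathway, was at 37.7, 32.6 and 38.9 FPKM in base, 34.8, 30.7 and 33.02 in middle and 37.2, 29.8 and 35.6 in apex. Replicate 2 was the lowest in each region, and the regions overlapped (-0.09 ± 0.10, adjusted p = 0.576, 95% interval -0.32 to 0.14). DVL3, a Dishevelled protein that serves both branches, was at 25.6, 22.1 and 24.6 FPKM in base, 26.04, 22.8 and 22.4 in middle and 24.6, 22.8 and 24.7 in apex, with a difference of -0.00 and a 95% interval of -0.19 to 0.18. DVL1 was 22.6 ± 2.46 in base and 20.3 ± 0.586 in apex (-0.15 ± 0.08, adjusted p = 0.253). AXIN1 was 22.997 ± 1.23 in base and 18.6 ± 1.63 in apex, and it was lower in apex (-0.30 ± 0.08, adjusted p = 0.0277) at a ratio of 0.807.

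TCF7L2, a transcription partner of beta-catenin, was at 18.4, 12.1 and 15.4 FPKM in base, 14.03, 11.6 and 10.8 in middle and 14.2, 10.2 and 10.5 in apex. Replicate 1 was the highest in each region and the regions overlapped. The difference between apex and base was -0.37 ± 0.17, with an adjusted p of 0.164 without the block and 0.0124 with it at a ratio of 0.758. TCF7 was at 0.462, 0.113 and 0.178 FPKM in base, 0.233, 0.139 and 0.494 in middle and 0.307, 0.3397 and 0.433 in apex, under the level needed for a test.

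In the core PCP group, CELSR1 and PRICKLE2 were called in opposite directions and the other 4 genes were not called. CELSR1 (chr1:15740825-15899595), an atypical cadherin that bridges neighbouring cells, was at 3.98, 4.01 and 5.79 FPKM in base, 8.07, 5.52 and 9.13 in middle and 10.1, 8.03 and 10.99 in apex. Base and apex did not overlap, and replicate 3 was the highest in each region. It was 2.11-fold higher in apex than base (0.94 ± 0.20, adjusted p = 0.0107). With the block CELSR1 was also called higher in middle than base (0.61 ± 0.10, adjusted p = 0.00528 against 0.0871 without the block). CELSR3, a relative known for axon guidance in mice, was 3.85 ± 0.553 FPKM in base and 3.42 ± 0.2704 in apex (-0.13 ± 0.12, 95% interval -0.40 to 0.14). CELSR1 made up 54.0 ± 8.85% of the summed FPKM of both genes in base, 67.4 ± 7.76% in middle and 73.8 ± 2.36% in apex.

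PRICKLE2 (chr12:13659696-13686513), a cytoplasmic PCP protein, was at 18.7, 19.1 and 18.9 FPKM in base, 14.9, 14.2 and 13.3 in middle and 11.3, 10.3 and 10.95 in apex. The 3 regions were well apart, and the replicates within each lay close together. It was 1.74-fold lower in apex than base (-0.75 ± 0.07, adjusted p = 0.000646), and for middle against base the difference of -0.40 ± 0.07 passed the adjusted p (0.0147) but not the ratio. PRICKLE1 was at 22.6, 21.5 and 21.9 FPKM in base, 19.4, 20.8 and 18.8 in middle and 21.1, 20.3 and 18.8 in apex (-0.13 ± 0.07 between apex and base, adjusted p = 0.217). Its locus overlaps that of PPHLN1, which had a mean of 7.93 FPKM, so its value is uncertain.

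VANGL2, a membrane protein whose loss disturbs hair bundle orientation in mice, was 10.5 ± 0.7695 FPKM in base, 12.1 ± 2.59 in middle and 12.3 ± 1.402 in apex. Its difference between apex and base was 0.21 ± 0.15, with a 95% interval of -0.13 to 0.56. VANGL1 was 9.69 ± 0.0606 in base, 8.18 ± 0.932 in middle and 9.91 ± 0.629 in apex. Its middle libraries were below all base and apex libraries, with differences of -0.23 ± 0.09 against base (adjusted p = 0.147) and 0.25 ± 0.09 for apex against middle (adjusted p = 0.425).

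Between middle and base, 5 of 46 genes (10.9%) were called, beside 4.39% of all genes tested. They were FZD3 and SFRP2, higher in middle (2.93% of all genes), and FZD4, RSPO2 and SFRP4, lower (1.46%). With adjusted p alone 9 were past the threshold (8.4% of all genes). With the replicate number as a block 10 were called (9.87% of all genes), which adds CELSR1, LGR6 and WNT7A among the higher (7.63% of all genes) and RSPO3 and RSPO4 among the lower (2.25%). Without base replicate 1 the count was 3, without base replicate 2 or middle replicate 3 it was 1, and without middle replicate 2 it was 8. Of these 5 genes, SFRP4 was called whichever library was left out. The groups did not overlap for 20 of 46 (43.5%), against 30.7% of all genes tested.

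Between apex and middle, limma called none of the 46 genes, and 0.0613% of all genes tested. At an unadjusted p under 0.05 there were 10 (21.7%), beside 9.01% of all genes tested. With the block 2 were called (2.11% of all genes), FZD4 higher (1.43%) and RSPO3 lower in apex (0.682%). The groups did not overlap for 11 genes (23.9%), against 12.8% of all genes tested. Higher in apex were 8 (6.78% of all genes), namely FZD3, FZD4, FZD8, LGR6, SFRP2, SFRP5, DKK2 and VANGL1, and lower were 3 (6.07%), namely FZD2, PRICKLE2 and RSPO1.

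By the order of the region means, 22 of the 46 genes (47.8%) stepped down from base through middle to apex, against 29.5% of all genes tested. The opposite order was found for 10 genes (21.7%), against 24.8% of all genes. Middle was the lowest region for 10 genes (21.7%, against 21.1% of all genes), with FZD4 and VANGL1 among them, and the highest for 4 (8.7%, against 24.6%). These orders rest on means, and many neighbouring means differ by less than their spread.

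Replicates also stood apart in a shared way. The libraries numbered 1 held the highest value in all 3 regions for 12 of the 46 genes (26.1%, against 14.3% of all genes tested), FZD9, DKK3, PTK7, ROR1, LGR4 and RSPO4 among them. These libraries held the lowest value in all 3 regions for 1 gene (2.17%, against 10.2%). The libraries numbered 2 held the lowest value in all 3 regions for 7 genes, AXIN2, SFRP1, LGR5, VANGL2 and WNT7A among them. That share of 15.2% is near the 13.7% of all genes. They held the highest value for 1 gene (2.17%, against 13.3%). The libraries numbered 3 held the highest value for 9 genes (19.6%, against 12.2%), including CELSR1, FZD3, FZD8 and LGR5, and the lowest for 6 (13%, against 10.9%). The summed neuron markers were highest in replicate 2 of every region, though SYT1 and GAP43 were not in each region. The part of neurons in these offsets was not tested.

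The 12 genes that were not tested stayed below an FPKM of 1 in every library, with 0.871 for DKK1 in an apex library as the highest. They were WNT1, WNT2, WNT3, WNT3A, WNT8B, Wnt8c, WNT9B, Wnt10a, WNT16, FZD5, DKK1 and TCF7. WNT1 and WNT3A were listed at 0 in all 9 libraries, a value that can also come from a failed estimate, since COL1A1 was listed at 0 too. WNT16 was at 0.138, 0.123 and 0.193 FPKM in base and 0.0283, 0 and 0.0283 in middle and was listed at 0 in the 3 apex libraries, and DKK1 was at 0, 0.294 and 0, 0.597, 0.134 and 0.589 and 0.448, 0.871 and 0.218 in base, middle and apex.

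Other genes of the pathways were followed through a list of 64, of which 52 were matched and 49 tested. Between apex and base 7 of the 49 (14.3%) were called, beside 11.8% of all genes tested, with 3 higher (6.12%, beside 7.15%) and 4 lower (8.16%, beside 4.66%). KREMEN1, which with DKK proteins removes LRP6 from the membrane, was at 11.2 ± 3.63 FPKM in base and 31.5 ± 6.91 in apex (1.43 ± 0.26, adjusted p = 0.00676). FRZB, another secreted Frizzled-related protein, was more abundant than any of the 58 genes, at 571.8 ± 13.2 FPKM in base, 458 ± 22.2 in middle and 361 ± 15.2 in apex (-0.66 ± 0.07, adjusted p = 0.00121). The symbol rule does not take in FRZB, so it is missing from the SFRP shares above, which would all be lower with it. KREMEN1 and FRZB thus differed in opposite directions.

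Within the beta-catenin branch, APC2 rose from 5.71 ± 1.51 to 13.9 ± 2.12 FPKM (1.17 ± 0.30, adjusted p = 0.0253) and PYGO1, part of the transcription complex of beta-catenin, fell from 20.6 ± 2.66 to 12.5 ± 1.08 (-0.67 ± 0.12, adjusted p = 0.00534). APC2 was also higher in middle than base (1.17 ± 0.30), with an adjusted p of 0.0494, close to the threshold. Its middle values were 8.53, 21.8 and 13.9, and the highest was in replicate 2, where the neuron marker sum was highest too. Whether this call holds when a library is left out is not shown here. Beta-catenin itself, CTNNB1, was at 530.7 ± 37.6 FPKM in base and 366 ± 17.5 in apex. It passed the adjusted p (-0.54 ± 0.08, adjusted p = 0.00354) at a ratio under 1.5. Of 8 tested genes listed as pathway targets and feedback, 0 were called between apex and base, beside 11.8% of all genes tested. With the block 1 of the 8 was called, higher in apex, beside 15.1% of all genes. DACT1 of this group was lower in apex (-0.51 ± 0.09, limma adjusted p = 0.0055), at a ratio under 1.5.

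Among PCP effectors and the FAT and DCHS cadherins, MAPK8, a JNK kinase, was at 10.7 ± 1.15 FPKM in base and 19.0 ± 1.67 in apex (0.77 ± 0.09, adjusted p = 0.00156). DAAM2, a formin that binds Dishevelled, fell from 43.2 ± 6.14 to 20.4 ± 1.78 (-1.04 ± 0.14, adjusted p = 0.00188), and FAT4, a large cadherin of the second polarity system, from 9.80 ± 0.153 to 4.24 ± 0.215 (-1.04 ± 0.07, adjusted p = 0.000339). Both were also lower in middle than base (-0.73 ± 0.14, adjusted p = 0.0204, and -0.59 ± 0.07, adjusted p = 0.00716). FAT4 libraries of the 3 regions did not overlap, at 9.68 to 9.97 FPKM in base, 6.01 to 6.297 in middle and 4.003 to 4.42 in apex. With the block DACT2 and FAT2 were added among the higher (adjusted p = 0.0133 and 0.0423).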

How the data were processed

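Polyadenylated RNA of 9 libraries was read as 101-base pairs. Per the labels and the study's methods, the authors aligned reads to galGal5 with STAR 2.5.4b, used the Ensembl annotation, and deposited a table of FPKM, as estimated by Cuffdiff 2.2.1 for every gene in each library. The scaling between libraries is not given in the sources used here. Libraries were placed in regions by their titles. FPKM are not counts and carry no read totals, so no counting interval is given, and their precision comes from the spread of 3 replicates.

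A linear model of region was fitted to log2(FPKM + 1) over all 9 libraries, using limma 3.58.1 (R 4.3.3) with an intensity trend. Tests were two-sided, genes needed a mean FPKM of at least 1 in a region, and p-values were adjusted by Benjamini-Hochberg over 13045 genes. Ratios are of mean FPKM. The code was tested on simulated data.

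The replicate numbers stand in the sample titles. The methods give 12 chickens for 3 replicates of each region, which implies shared chickens without stating it. Deviations from the region means correlated for all 9 same-numbered pairs (r = 0.368 to 0.66 across genes, median 0.462), against -0.52 to 0.151 for the 18 differently numbered pairs. Deviations within a region sum to 0, which ties the values of differently numbered pairs to those of same-numbered pairs. The numbers were taken to pair the libraries in the fit with the block, while the main fit leaves this pairing out.

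The genes and lists were chosen with earlier results of these data known. Values in every library were given for genes called in any comparison with or without the block, and for the 2 most abundant of each role. Other genes were given by region means, and called genes of a wider pathway list were named. The library values of LGR5, LRP6, WNT16 and DKK1, and the genes NDP, CTNNB1 and DACT1, were added after their values were seen. So were the counts for the targets and feedback genes. Loci in the text count the first base as 1. In the deposited table starts were read as counted from 0, because under that reading 52.7% of 1163 short loci have a length that is a multiple of 3, against 23.6% otherwise. Alternatives were a pseudocount of 0.1, no filter and a filter on 6 libraries, quantile and median-ratio scaling, no trend, the block, only the 6 libraries compared, a ratio of 2, adjusted p alone, and leaving out each library or replicate number 2. No sequences are shown.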

Additional observations from a re-analysis of the deposited data

How the results depend on the processing

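Between apex and base the count of Wnt and PCP genes called was 15, and it stayed between 10 and 21 under every alternative, with 12 to 15 when one library was left out. Between middle and base the count of 5 became 10 with the replicate number as a block, 3 with the 6 libraries compared alone, 2 without replicate number 2 in all regions, 9 with adjusted p alone and 2 with a ratio of at least 2, and leaving out one library gave 1 to 8. Between apex and middle the count of 0 became 2 with the replicate block and stayed at 0 when one library was left out. The block added DKK2 between apex and base, 5 genes between middle and base, and FZD4 and RSPO3 between apex and middle, and it changed no other call of these genes. The single genes followed were those called in the fit without or with the block, a choice that itself favours stable signs. For them, 445 values kept their direction and their side of the call under the alternatives. Another 17 became called, 40 were no longer called, and none changed sign. Genes called only with the block count among the 445 where they stayed not called. Their fits with the block count among the 17. The causes were not tested. Scaling moved the median difference of all genes by less than 0.1. The floor of 1 FPKM leaves 12 genes untested, and LGR6 drops out where at least 6 libraries must reach it. With 3 pools per region, a gene that was not called may still differ by any amount within its interval. Read depth, as estimated from the steps in the low values and not from read totals, differed between libraries by up to about 1.61 times. The study's methods give a narrower range of read pairs.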
